A study of Gallus gallus with 3 samples.

Results

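The miRNAs described here carry the names gga-miR-1451 to gga-miR-1816, with no star, arm or letter after the number, and G plus C make up less than 50% of their target sequence. Of the 542 chicken miRNAs on the array, 272 have such a name, and 93 of these 272 have a G plus C content (GC) under 50%. The members were chosen by name and array sequence, and no signal entered the rule. Earlier results of these data were known when the rule was chosen. GC ranged between 23.8% and 48% among the 93, with a median of 42.9%. Leg muscle was taken from 14-day-old embryos of dwarf recessive White Rock chickens, in which part of GHR, the gene of the growth hormone receptor, is deleted, and of normal recessive White Rock chickens of the same age. Both breeds are meat-type birds, and per the study's methods the embryos were female and skin and bones were removed. A pool mixed RNA from 3 embryos, so single embryos cannot be told apart, and each of the 3 arrays compared a dwarf with a normal pool. Dwarf RNA was in Cy5 on arrays 1 and 3 and in Cy3 on array 2, with normal RNA in the other dye. The array is the replicate (n = 3), and so small a number limits the precision of all values given. No label ties the array numbers to separate hatches or extractions, so the spread between arrays may be partly technical.

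A miRNA is a short RNA that guides the Argonaute protein to messenger RNAs, mostly by pairing of its seed, the bases near its 5′ end. Well-known muscle miRNAs such as miR-1, miR-133 and miR-206 are shared by many animals. Many chicken miRNAs with higher numbers were instead named from sequencing of chicken small RNAs, and for most of them no target or function is established. Some short RNAs in such catalogues come from other small RNAs, for example from small nucleolar RNAs (snoRNAs), which guide chemical changes of ribosomal RNA.

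Signal is the mean intensity of 6 spots minus the median empty spot of the same channel, and a signal over 32 is called detected. Intensity depends on the probe as well as on the amount of RNA, so an order of miRNAs by signal is not an order of their levels. The mean signal over the 6 pools exceeded 32 in 7 of the 93 members. Their target sequences are printed here because every strain ratio below rests on them. miR-1662 is added as the member next under the limit. Capitals mark the seed, bases 2 to 8.
miR-1599: gGAGGGAGgaaaaaaaaaaa
miR-1454: gUACAAUGaugagacuuuggcucc
miR-1664: uCUGUGACcucauuuaccucc
miR-1752: uUCUGUUGgagagaagagaca
miR-1563: gCACAUGAugaggaagcacugaaa
miR-1701: gGCUGGUUaguugguuguuu
miR-1677: uGACUUCAguaggagcaggauu
miR-1662: uUGACAUCaucauacuugggau
The 7 tested members have 7 different seeds, and none shares its seed with another miRNA on the array.

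Few members were detected. The 7 that passed made up 7.53% of the 93, whereas 23.4% of all 542 miRNAs passed. Of the miRNAs with such a plain name in the same number range and a GC of 50% or more, 20 of 179 passed (11.2%). Among all the other miRNAs, 67 of 157 with a GC under 50% passed (42.7%) and 33 of 113 with a GC of 50% or more (29.2%). These others include 54 star names and 12 arm or letter names from the same number range. The members were therefore the class with the lowest share, and the other miRNAs with a GC under 50% had the highest. No test was made between these classes. A signal over 32 in at least 1 pool was found for 10 members, or 10.8%, against 27.5% of all miRNAs. A signal over 32 in all 6 pools was found for 2 members, miR-1599 and miR-1454, or 2.15%, against 15.7% of all miRNAs.

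**Figure D1:**
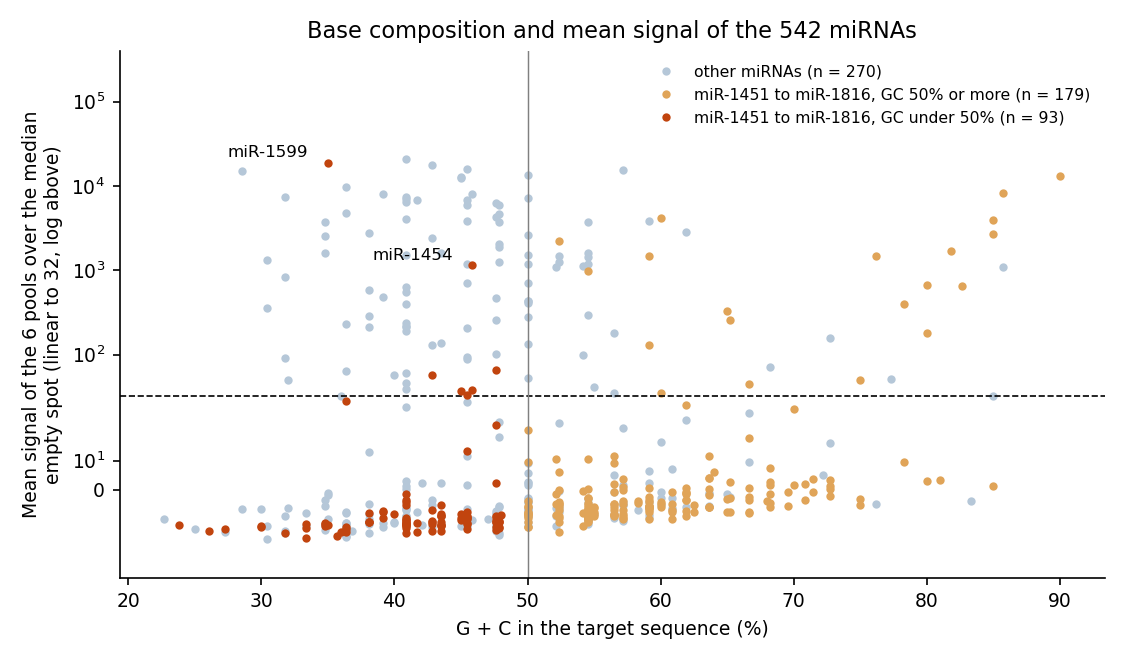
Mean signal of the 6 pools (intensity units over the median empty spot, linear up to 32 and logarithmic above) against the GC of the target sequence (%), 1 point per miRNA. The dashed line is the limit of 32 and the vertical line is a GC of 50%. Of the 93 members, 7 lie above the dashed line, and miR-1599 and miR-1454 lie far above the other 5.

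The members were also counted by GC, with no test between the bins. At a GC of 45% to under 50%, 5 of 32 members passed (15.6%), whereas at a GC under 45% 2 of 61 passed, miR-1752 and miR-1599. Of the 5, miR-1563, miR-1701 and miR-1677 lay near the limit, with mean signals of 38.2, 36.9 and 32.7. All 5 had their highest signal in the normal pool of array 3. None of the 12 members with a GC under 35% passed. Among the miRNAs other than the 272, 1 of 5 passed at a GC under 30% and 9 of 23 at 30% to under 35%. At 45% to under 50%, 23 of 50 of them passed (46%). Among those of the 272 above the limit of the rule, 2 of 55 passed at a GC of 50% to under 55% and 2 of 44 at 55% to under 60%. At 60% or more, 16 of 80 of them passed (20%). The member with the highest GC was miR-1674 at 48%, with a mean signal of -8.48. Just above the rule, 14 of the 272 had a GC of exactly 50%, none of them passed, and their mean signals lay between -12.5 and 20.5. The 7 tested members had a median GC of 45.5% and a median length of 21 bases, against 41.3% and 22 bases in the 86 members that were not tested. A 5′ U, the commonest first base, was found in 44 of the 93 members and in 246 of all 542 miRNAs (47.3% and 45.4%).

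The number of members detected in each pool was compared between the strains. The dwarf pools of arrays 1, 2 and 3 had 2, 5 and 6 members over 32, and the normal pools had 5, 2 and 10. The corresponding shares of the 93 were 2.15%, 5.38% and 6.45% in dwarf pools and 5.38%, 2.15% and 10.8% in normal pools. Over all 542 miRNAs they were 18.6%, 22.9% and 21.6% in dwarf pools and 23.1%, 16.6% and 26.2% in normal pools. The mean was 4.33 ± 2.08 (SD, n = 3) in dwarf pools and 5.67 ± 4.04 (SD, n = 3) in normal pools, and the groups overlapped. Within arrays the dwarf count minus the normal count averaged -1.33 ± 3.79 (SD, n = 3; two-sided exact sign-flip p = 0.75), where 0.25 is the smallest p that 3 arrays allow. Dwarf pools had more detected members on array 2 and fewer on arrays 1 and 3. Without array 2 the mean difference was -3.5, and without array 3 it was 0. Both arrays left without array 2 had the dwarf pool in Cy5, so strain and dye cannot be told apart in the -3.5.

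Counts were lower in Cy5 on all 3 arrays. The pool in Cy5 had 3, 3 and 4 fewer members over 32 than the pool in Cy3 of the same array, a mean difference, Cy5 minus Cy3, of -3.33 ± 0.58 (SD, n = 3; two-sided exact sign-flip p = 0.25, the smallest possible). This was not limited to the members. Of all 542 miRNAs, 18.6%, 16.6% and 21.6% were over 32 in Cy5 of arrays 1, 2 and 3, against 23.1%, 22.9% and 26.2% in Cy3. The limit of 32 was not equally strict in all channels. It equalled 3.55, 17.6 and 5.56 robust standard deviations of the empty spots (their scaled median absolute deviation) in Cy5 of arrays 1, 2 and 3, and 1.24, 3.52 and 1.38 in Cy3. Single empty spots over 32 made up 11.1% and 5.19% of the empty spots in Cy3 of arrays 1 and 3, and at most 0.472% in the other 4 channels. The deviations and these shares are for single spots, whereas a miRNA's signal is the mean of 6 spots. They do not give how often a mean of 6 empty spots would exceed 32. With a limit of 3 such deviations in each channel, the dwarf pools had 2, 5 and 8 members over it and the normal pools 2, 8 and 8, and the mean difference, Cy5 minus Cy3, turned to 1.

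**Figure D2:**
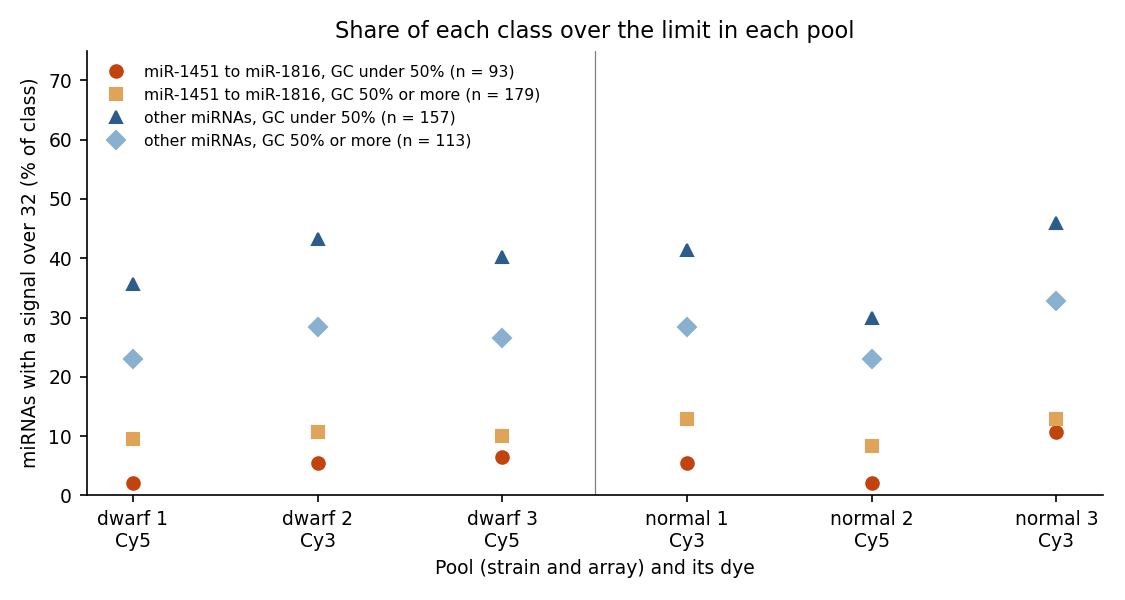
Share of each class of miRNAs with a signal over 32 (% of the class) in each pool, dwarf pools left of the vertical line and normal pools right of it, with the dye under each pool. The members run between 2.15% and 10.8% and lie lowest in every pool.

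All 10 detected members were over 32 in the normal pool of array 3, the channel in which the most miRNAs of the array were over 32. The same held for most detected miRNAs. Over the whole array, 149 miRNAs were over 32 in at least 1 pool, and 142 were over 32 in the normal pool of array 3. miR-1701, miR-1702 and miR-1559 were over the limit in that pool and in no other. Without array 3, 6 members were over 32 in at least 1 pool and 3 had a mean signal over 32.

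miR-1599 was by far the brightest member, and its mean signal of 18886 ranked it 2nd among the 542 miRNAs. It had signals of 12895 ± 2007, 27809 ± 1628 and 7249.6 ± 599 in the dwarf pools on arrays 1, 2 and 3, against 30867 ± 3142, 5179 ± 469 and 29315 ± 2075 in the normal pools (SD of 6 spots). The strains overlapped, but the dyes did not. The 3 Cy5 channels read between 5179 and 12895, and the 3 Cy3 channels between 27809 and 30867. After loess normalization Cy5 was still below Cy3 on all 3 arrays, and the log2 ratio, Cy5 over Cy3, was -1.06 ± 0.59 (SD, n = 3). That was the 3rd largest mean dye difference of the 127 tested miRNAs. Of these, 26 were lower and 13 higher in Cy5 on all 3 arrays.

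The sequence of miR-1599 ends in 11 A, and no other miRNA on the array ends in 5 or more. Labelling on this platform adds a poly(A) tail to the small RNAs and joins the dye tag to that tail. The part of the A run in the signal or in the dye difference was not tested. Only miR-365 and miR-1551 also held a run of 5 A, inside their sequences, and their mean signals were 92 and -7.62. The 9 bases before the A run, GGAGGGAGG, occur in 4 of the 542 miRNAs (0.738%), on the strand of the target sequence, and in no other member. The carrier with the highest signal after miR-1599 was miR-1770, with a GC too high for the rule and a mean signal of 1679.8. The 2 sequences are set side by side with the shared run in capitals.
miR-1599: GGAGGGAGGaaaaaaaaaaa
miR-1770: cugcgggggaGGAGGGAGGggg
The other carriers, miR-2127 and miR-762, had mean signals of 1085 and 157. Another run of 9 bases of miR-1599, AGGGAGGAA, also stands in miR-1614*, which had a mean signal of -5.98. In the RefSeq gene table of assembly GRCg7b the entry MIR1599 has the biotype "other", not miRNA, and lies inside a long non-coding RNA gene, LOC101751087.

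miR-1454 was the second member over 32 in every pool, with a mean signal of 1143 and rank 61 of 542. It had signals of 323 ± 54.2, 557 ± 53 and 1158 ± 79.4 in the dwarf pools on arrays 1, 2 and 3, against 473 ± 58.6, 325 ± 18.4 and 4019.8 ± 365 in the normal pools (SD of 6 spots). The normal pool of array 3 stood above the other 5 pools, which overlapped between the strains. Its gene lies inside RPS12, which encodes a protein of the small ribosomal subunit. The other 5 tested members were far dimmer, with mean signals between 32.7 and 65.3.

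miR-1664 had signals of 23.1 ± 9.66, 90.6 ± 20.1 and 76.5 ± 10.6 in dwarf pools, against 48.1 ± 20.4, 7.39 ± 1.62 and 146 ± 15.4 in normal pools. It was over 32 in 2 dwarf and 2 normal pools. miR-1752 had signals of 15.2 ± 8.4, 14 ± 6.29 and 88 ± 22 in dwarf pools, against 48.2 ± 18.7, 25 ± 3.83 and 148 ± 12.5 in normal pools. The normal pool was brighter on each array before normalization, and the strains overlapped. The gene of miR-1752 lies inside SYT11, a synaptotagmin, a family of membrane traffic proteins.

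miR-1563 had signals of 20.2 ± 8.08, 39.4 ± 11.5 and 32.8 ± 8.01 in dwarf pools, against 41.4 ± 21.4, 11.3 ± 13.4 and 84.3 ± 25.5 in normal pools. In 3 of the 6 pools its distance from 32 was smaller than the SD of its 6 spots. The RefSeq table lists it under the symbol SNORD69, a snoRNA name, but with the biotype miRNA. The entry lies inside GNL3, which encodes a nucleolar GTP-binding protein. miR-1701 had signals of 2.46 ± 8.65, 15.6 ± 12.9 and 19.2 ± 5.56 in dwarf pools, against 12.2 ± 14.2, 2.45 ± 1.34 and 169 ± 41.3 in normal pools. It passed the filter through the normal pool of array 3 alone. Its first 10 bases also stand in miR-456, which had a mean signal of 428 and lies outside the number range, and capitals mark them.
miR-1701: GGCUGGUUAGuugguuguuu
miR-456: caGGCUGGUUAGaugguuguca
A part of miR-456 in the signal of miR-1701 was not tested. A longer run, of 11 bases, is shared by miR-1677 and miR-1575, and miR-1575 had a mean signal of -2.43.

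miR-1677 lay just inside the filter, with a mean signal of 32.7, and miR-1662 just outside it, with 30.4. miR-1677 had signals of 8.37 ± 5.16, 51.4 ± 5.77 and 13.2 ± 5.82 in dwarf pools, against 23.8 ± 13.1, 11.2 ± 2.77 and 88.4 ± 17 in normal pools. miR-1662 had signals of 2.1 ± 6.87, 10.7 ± 11 and 34.9 ± 9.74 in dwarf pools, against 27.8 ± 12.5, 4.46 ± 3.96 and 103 ± 23.6 in normal pools. Neither separated the strains. The gene of miR-1677 lies inside EPHA7, an ephrin receptor that takes part in cell guidance, and that of miR-1662 inside VIPR1, a receptor for vasoactive intestinal peptide. The last 2 members over 32 in any pool were miR-1702, inside the protocadherin gene PCDH1, at 67.4 ± 25.1, and miR-1559, inside the integrin gene ITGAV, at 44.9 ± 17.7, both in the normal pool of array 3.

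**Figure D3:**
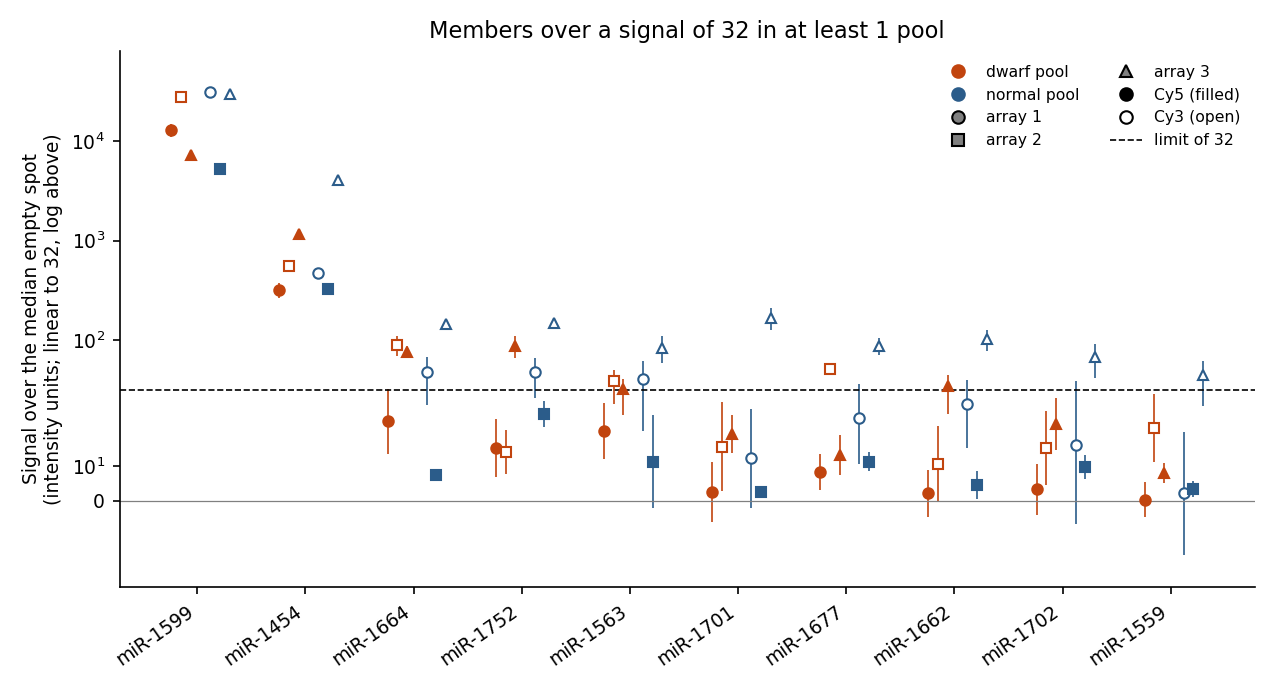
Signal of the 10 members detected in at least 1 pool (intensity units over the median empty spot, linear up to 32 and logarithmic above), with dwarf pools left of normal pools for each miRNA. Bars are the SD of 6 spots, symbols mark the array, and filled symbols are Cy5 and open symbols Cy3. miR-1599 forms a Cy5 group between 5179 and 12895 and a Cy3 group between 27809 and 30867, and the normal pool of array 3 is the highest point for each of the other 9.

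The remaining 83 members stayed at or under 32 in every pool. Their median signal was -11, 5.27 and -7.98 in the dwarf pools on arrays 1, 2 and 3, and -23.7, 0.095 and -28.5 in the normal pools. In the dwarf pools 81, 1 and 83 of the 83 lay below the median empty spot, and in the normal pools 82, 36 and 83. The lowest reading was -46 in the normal pool of array 3. The 310 undetected miRNAs outside the class had medians of -8.13, 6.6 and -4.45 in dwarf pools and -17.6, 0.44 and -16.2 in normal pools, higher than those of the members in all 6 pools. At this limit the 83 were not detectable, which does not show that they are absent from the muscle. Over the 6 pools 82 of the 83 had a mean below the median empty spot, and miR-1782 at 2.29 was the exception.

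**Figure D4:**
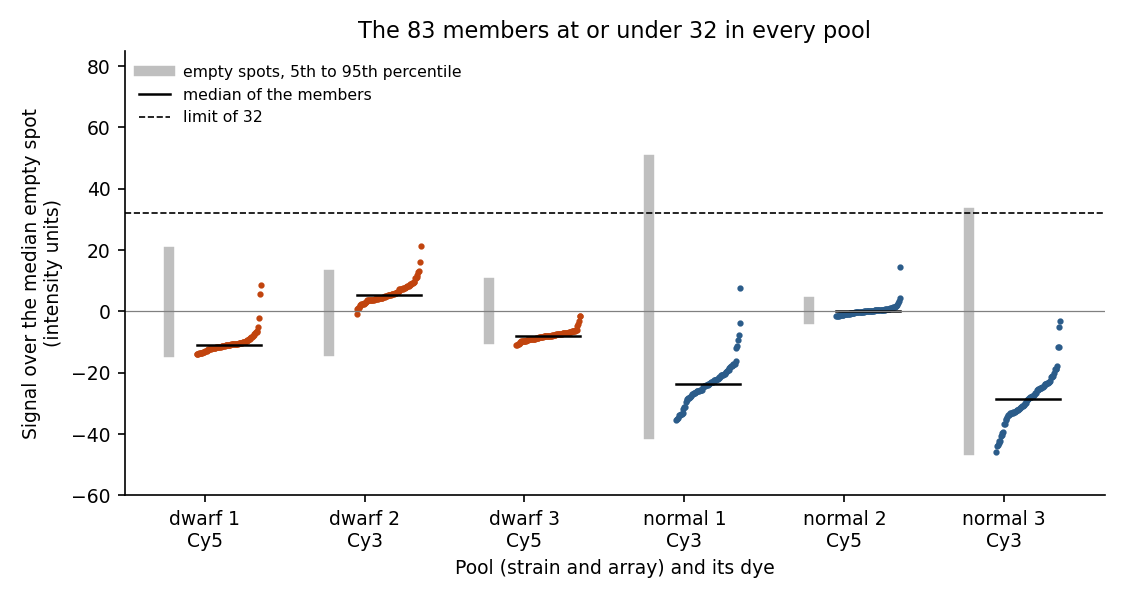
Signal of the 83 members at or under 32 in every pool (intensity units over the median empty spot), sorted within each pool, with dwarf pools left of normal pools. Grey bars span the 5th to the 95th percentile of the 424 empty spots of the channel, black lines are the medians of the members, and the dashed line is the limit of 32. The medians run between -28.5 and 5.27.

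The strain ratio, dwarf over normal on the log2 scale after loess normalization, was tested with limma over 127 miRNAs, with p-values adjusted over all 127. An offset of 50 was added to the intensities, which pulls ratios of dim miRNAs toward 0. None of the 7 tested members passed an adjusted p of 0.05, as was the case for 0 of all 127 miRNAs (0%). At an unadjusted p under 0.05 limma gave 0 of the 7 members, against 14 of 127 miRNAs, or 11.0%. The methods' t-test was run on the channel values without pairing by array. At an unadjusted p under 0.05 it gave 0 of the 7, against 2 of 127, or 1.57%. At the methods' own threshold of 0.01 it gave 0 of the 7, against 1 of 127. The median ratio of the 7 was -0.01, with 3 above and 4 below 0, and the median over all 127 was -0.05. In dwarf pools miR-1563, miR-1701 and miR-1677 averaged 30.8, 12.4 and 24.3, under the limit, against 45.7, 61.4 and 41.1 in normal pools. These 3 passed the filter through the normal pools, so the median and the signs of the 7 rest partly on that filter. Without array 2, when both arrays had the dwarf pool in Cy5, the median of the 7 was 0.11. On arrays 1, 2 and 3 the members' median was 0.03, 0.0036 and -0.23. The ratio kept one sign on all 3 arrays for 1 member, miR-1664, or 14.3%, against 32.3% of the tested miRNAs.

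miR-1664 had log2 ratios of 0.14, 0.45 and 0.55 on arrays 1, 2 and 3. Their mean was 0.38 (SE 0.15, limma adjusted p = 0.381), a 1.3-fold higher normalised signal in dwarf pools. It was the smallest adjusted p of the 7. Before normalization the dwarf signal was below the normal signal on arrays 1 and 3, so the positive sign on those arrays was seen only after normalization. The name of miR-1664 had no match in the gene table. miR-1563 had ratios of 0.14, -0.03 and 0.22, with a mean of 0.11 (SE 0.13, limma adjusted p = 0.825).

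miR-1599 had the widest spread of the 7, with ratios of -0.52, 1.68 and -0.99 and an SD between arrays of 1.42. The mean was 0.06 (SE 0.61, limma adjusted p = 0.983), and the array with the opposite sign was array 2, on which the dyes were exchanged. With a dye coefficient in the fit the ratio was 0.46 (limma adjusted p = 0.402), and without array 2, when both arrays had the dwarf pool in Cy5, it was -0.75 (limma adjusted p = 0.239). Its adjusted p ran between 0.239 and 0.999 over all settings. The normalised signal was 16171 ± 9819 (SD, n = 3) in dwarf pools and 14590 ± 7393 (SD, n = 3) in normal pools, offset included. miR-1454 had ratios of 0.53, -0.45 and -0.30, with a mean of -0.07 (SE 0.25, limma adjusted p = 0.973), and without array 2 the ratio was 0.11. Its normalised signal was 778 ± 200.5 (SD, n = 3) in dwarf pools and 879.6 ± 412 (SD, n = 3) in normal pools.

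miR-1752 had ratios of -0.02, -0.68 and 0.66 and a mean of -0.01 (SE 0.30), and without array 2 the ratio was 0.32. miR-1701 had ratios of -0.01, 0.0036 and -0.44 and a mean of -0.15 (SE 0.16). It passed the filter through the normal pool of array 3, and without array 3 the ratio was -0.0045. miR-1677 had ratios of 0.03, 0.04 and -0.23 and a mean of -0.05 (SE 0.13). The adjusted p-values of these 3 by limma were 0.995, 0.824 and 0.973. Where both pools of an array lie near the background, as for miR-1701 and miR-1677 on array 1, a ratio near 0 says little about the miRNA.

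**Figure D5:**
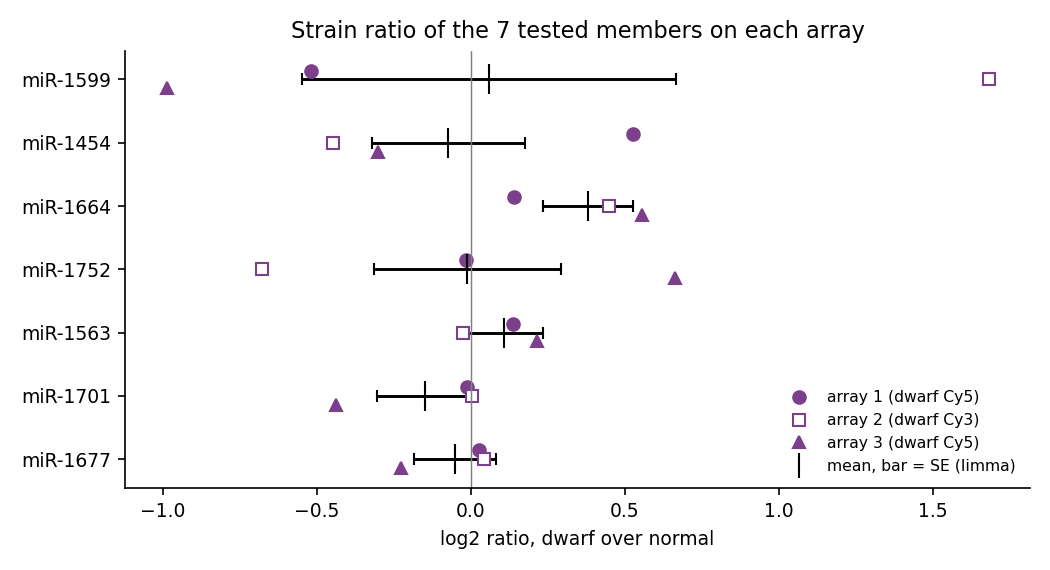
Log2 ratio, dwarf over normal, of the 7 tested members on each array, brightest at the top. Symbols mark the arrays, the open square being array 2 with the dwarf pool in Cy3, and the black mark and bar are the mean and its SE by limma. miR-1664 alone lies on one side of 0 on all 3 arrays, and miR-1599 spreads between -0.99 and 1.68.

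The 93 members have 92 different seeds, and 6 of them (6.45%) share a seed with another miRNA on the array, as do 105 of all 542 miRNAs (19.4%). The rule leaves out names with a star, arm or letter, by which related miRNAs are often named, so these shares are not of like sets. Only 1 of the 6 members, miR-1812, shares its seed with a miRNA that passed the filter, miR-466. The pair is shown with the seed in capitals.
miR-1812: aUAUAUACuguauacuguguca
miR-466: aUAUAUACacacacacauaagac
miR-466 was over 32 in all 6 pools, with a mean signal of 357, whereas miR-1812 was over 32 in none, with a mean of -13.5. The signal at one probe of the pair was thus not seen at the other. The only seed shared within the class, UCCUGUG of miR-1458 and miR-1459, belongs to undetected members with mean signals of -14 and -15.8.

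A second sequence feature was chosen after the sequences had been seen. The hexamer UGAUGA is the core of the C box, and CUGA is the D box, of one class of snoRNAs. Both were searched on the strand of the target sequence only, since the targets are single-stranded RNA. UGAUGA occurs in 6 of the 93 members (6.45%) and in 12 of all 542 miRNAs (2.21%). Of the 12, 5 are among the 157 other miRNAs with a GC under 50%. Only 1 has a GC of 50% or more, and it lies in the number range. The hexamer is itself low in GC, so the share over all miRNAs is not that of a like class. The 6 members are shown with UGAUGA in capitals.
miR-1454: guacaaUGAUGAgacuuuggcucc
miR-1563: gcacaUGAUGAggaagcacugaaa
miR-1709: uggaaUGAUGAgugcacugacu
miR-1719: aaagaUGAUGAguugcugaug
miR-1622: cacauaUGAUGAguacugaug
miR-1799: ugaagUGAUGAugccugauua
CUGA alone is common, in 24 members (25.8%) and 83 of all miRNAs (15.3%). Of the 6 members with UGAUGA, the 5 other than miR-1454 also hold CUGA further toward the 3′ end, which was found in 7 of all 542 miRNAs (1.29%). The matches are letters in short sequences and mark no snoRNA by themselves. Of the 6, miR-1454 and miR-1563 passed the filter, and the other 4 had mean signals between -10.96 and -9.47. Only miR-1563 has a snoRNA symbol in the table, where its biotype is miRNA.

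Of the 93 members, 85 were matched to an entry of the gene table, 83 by symbol and 2 by synonym. The table gives no strand, so a miRNA inside a gene may be read from either direction. Of the 85, 71 lie inside another gene, 68 of them inside a protein-coding gene, and 14 inside none. Some hosts are known from muscle. They include UTRN, which encodes utrophin, LAMA2, which encodes a laminin of the muscle basement membrane, and the gene of vimentin, VIM. Their members miR-1734, miR-1660 and miR-1661 had mean signals of -7.97, -12.4 and -11.1, all below the median empty spot. Apart from these hosts, miR-1766 in the myosin gene MYO10 was at -11.5. The median of the mean signals was -10.9 over the 93 members and -5.13 over all 542 miRNAs. Values below the median empty spot were thus not particular to these hosts. miR-1559 in ITGAV was higher, with a mean of 13.2. These hosts were picked after the values were seen.

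The star strands of 19 members were also on the array, and none of them passed the filter, against 23.4% of all 542 miRNAs. The star strand is the other arm of the same hairpin. That of miR-1677 came nearest, with signals of 14.4, 32 (just under the limit) and 15.7 in dwarf pools, against 11.4, 7.87 and 55.8 in normal pools, so it was over 32 in 1 pool, in which miR-1677 was also highest. The star strand of miR-1664 had a mean signal of -0.733. The star strands of other miRNAs were not counted as a group, and some of them passed, among them miR-1560* with a mean signal of 50.8.

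The tissue label was checked against markers. Of 7 muscle miRNAs, 6 were over 32 in all 6 pools, with summed signals of 14199 to 46692 in dwarf pools and 30235 to 69817 in normal pools, and miR-1b was over 32 in none. Of 6 epithelial miRNAs the summed signals were 28208 to 50581 in dwarf pools and 274 to 19562 in normal pools. The lowest sum was that of the normal pool of array 2, which stands apart in these markers. miR-203 made up most of each sum, with 43293, 29503 and 25734 in dwarf pools against 10961, 257 and 14021 in normal pools. The rest of the list was brighter in the dwarf pool on arrays 1 and 2 but in the normal pool on array 3. These signals were not normalised, and the channels differed in total brightness. The positive signals of all miRNAs summed to 222823, 373148 and 350929 in the dwarf pools on arrays 1, 2 and 3. In the normal pools they summed to 354499, 198233 and 697701. The part of these epithelial miRNAs in the members' values was not tested. The ratios and counts that turned or moved most without array 2 are given with that value. In all values without array 2 the dwarf pools are in Cy5, so strain and dye cannot be told apart there. The red blood cell list had 1 of 2 over 32 in all pools, the leukocyte list 0 of 6, cartilage 0 of 1 on the array, and the endothelial miR-126 was over 32 in all 6. In the leukocyte list miR-146a and miR-146b were over 32 in 5 pools, miR-223 in 4, miR-155 in 1, and miR-142-3p and miR-142-5p in none. The cartilage miRNA was miR-140, with a mean signal of -5.17. Its star strand, miR-140*, was not on the list and had a mean signal of 2833. In pooled tissue, a lower number of cells and less RNA in each cell cannot be told apart.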

How the data were processed

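Small RNAs from 6 pools were hybridised to 3 two-colour arrays designed on miRBase. The deposited array files hold a linear intensity per spot and dye, from which the authors had not yet subtracted a background. Commas in the numbers were removed, and the unit was entered as other for that reason. The authors also deposited log2 ratios, made by background subtraction and LOWESS. Set against the scanner values they run as dwarf over normal (Pearson r of 0.963, 0.905 and 0.767 on arrays 1, 2 and 3), although the titles name normal first. Their medians were 0.04, 0.03 and -0.13, and their centring is not given in the sources used here. They served as an alternative.

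Each array has 3968 spots, 6 for each miRNA and 424 empty. Signals are the mean of 6 spots minus the median empty spot. For ratios, all spots were corrected by normexp (offset 50), arrays were normalised by loess in which control spots had weight 0, and the 6 spots were averaged; channel values were taken after Aquantile. limma 3.58.1 in R 4.3.3 tested the 127 miRNAs with a mean signal over 32 (2 residual and 1.82 prior degrees of freedom, Benjamini-Hochberg adjustment). The fit was tested on simulated data. Pools were paired by array, since both shared 1 hybridisation. Counts were compared by exact sign-flip tests. Values are given for each member over the filter, the member next under it and the edges of the rule; sequences were added for members sharing a seed with a detected miRNA. The members, lists and rules were chosen with earlier results of these data known. No column was without a sample.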

Additional observations from a re-analysis of the deposited data

Results flagged for a closer look

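The star strands of the members enter no comparison between the strains. One of the 19, miR-1677*, lay above the limit of 32 over the median empty spot, at 55.8 in the normal pool of array 3, and its other 5 pools read between 7.87 and 32, just under the limit. Groups of 3 pools are too small for a check of single pools that stand apart.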

How the results depend on the processing

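No member passed an adjusted p of 0.05 under any of the 17 alternatives of the fit, and 6 of the 7 ratios turned in at least 1 of them, miR-1664 and miR-1677 in 1 only. The ratio of miR-1701 did not turn, but that miRNA passed the filter through the normal pool of array 3, so its direction is no sign of stability. miR-1677 had a mean signal over 32 in normal pools only, so its direction is no sign of stability either. With empty-spot subtraction and a floor of 32 the ratio of miR-1563 was -0.00665, of miR-1599 -0.0229 and of miR-1752 0.331. With median centring in place of loess miR-1563 was at -0.0801 and miR-1599 at -0.0464, and the median of the 7 was -0.159. With no normalization miR-1563 was at -0.32, miR-1599 at -0.287 and miR-1664 at -0.0768, and the median was -0.4. With loess on detected miRNAs miR-1454 was at 0.038 and miR-1752 at 0.000494. In the authors' table miR-1599 was at -0.239, miR-1664 at 0.854 and miR-1752 at -0.464, and the median was -0.156. Leaving out 1 array moved miR-1454 between -0.375 and 0.112, miR-1599 between -0.753 and 0.582, miR-1752 between -0.348 and 0.323, miR-1677 between -0.1 and 0.0357, miR-1701 between -0.226 and -0.00446, and the median between -0.00893 and 0.112.

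The count of members at an unadjusted p under 0.05 was 1, not 0, with an offset of 16, with no filter and with an intensity trend (miR-1664 each time, limma p of 0.0417, 0.0305 and 0.0264), and between 0 and 1 when 1 array was left out (miR-1599 without array 2). In separate channels with no replicate block, where both pools of an array count as unrelated, 0 of 7 passed either threshold and the median was -0.0115. The methods' t-test gave 0 members at the threshold of the methods, with or without Benjamini-Hochberg adjustment.

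With a limit of 64 the members with a mean signal over it were 3, with 100 they were 2, and among members with a GC under 45% they were 2, of which 1 was over 32 in all 6 pools. After loess and scaling between arrays 7 members were over 32 in all 6 pools, the difference, dwarf minus normal, was 0, and Cy5 minus Cy3 was 0.667. These values were corrected by normexp, with the offset taken off again, and not by the median empty spot. A value of 32 on them is therefore not the same limit. With a limit of 3 deviations of the empty spots, Cy5 minus Cy3 was 1. Leaving out 1 array gave between 3 and 8 members with a mean signal over 32 and a difference, dwarf minus normal, between -3.5 and 0. The background set at the median miRNA of the channel, an alternative chosen after seeing the data, gave 8 such members. The causes of these shifts were not tested. The 6 spots and the empty spots limit what can be read of dim members: most lay within the spread of the empty spots.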
